A study of Mus musculus with 5 samples.

Results

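Barcodes dominated by haemoglobin RNA were examined in single-cell RNA sequencing of mouse blood mononuclear cells. A barcode marks the RNA caught in 1 droplet, and a unique molecular identifier (UMI) marks 1 captured RNA molecule. A barcode was taken as a member when Hba-a1, Hba-a2, Hbb-bs and Hbb-bt together made up at least 50% of its UMIs and when it held no UMI of the B-cell gene Cd79a or the T-cell gene Cd3e. This rule found 3230 of 66,693 deposited barcodes, or 4.84%. Members were thus selected on measured globin, Cd79a and Cd3e UMIs, and differences of these genes from the rest are described without a test.

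Members numbered 1380 in the library of C57BL/6N mice on a high-fat diet (HFD) with L-NAME for 15 weeks that also received the nitrated fatty acid NO2-OA (nitro-oleic acid) for the last 4 weeks. They numbered 748 and 683 in the 2 libraries of mice on HFD + L-NAME alone, and 356 and 63 in the 2 libraries of mice on regular chow. L-NAME inhibits nitric oxide synthases, and the regimen models heart failure with preserved ejection fraction. The labels describe a density gradient, lysis of red cells in ammonium chloride, and freezing and thawing before droplet capture. They do not say whether a library is 1 animal, so the spread between libraries may be technical. The NO2-OA group has 1 library.

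Reticulocytes are young red cells that have lost the nucleus but still hold messenger RNA, mostly for globins. While they mature they clear mitochondria and ribosomes through ubiquitin and autophagy pathways. Haem, made in a pathway that begins with Alas2, joins 2 alpha-type and 2 beta-type globin chains in haemoglobin, and Bpgm makes the bisphosphoglycerate that lowers the affinity of haemoglobin for oxygen.

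The 4 genes of the rule lie in 2 clusters, the alpha-type genes on chromosome 11 and the beta-type genes on chromosome 7. The 120 bases before the start of each gene are shown because they differ between the beta-type genes but hardly between the alpha-type genes. Capitals mark the CCAAT box, the CACCC box, the TATAA box and the GATA motif on either strand. The sequences are RefSeq promoters of build GRCm38.p6.
Hba-a1, chr11:32283552-32283671, plus strand: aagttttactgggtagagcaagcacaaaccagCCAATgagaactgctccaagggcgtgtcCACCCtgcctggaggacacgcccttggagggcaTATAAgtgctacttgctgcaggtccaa
Hbb-bs, chr7:103827929-103828048, minus strand: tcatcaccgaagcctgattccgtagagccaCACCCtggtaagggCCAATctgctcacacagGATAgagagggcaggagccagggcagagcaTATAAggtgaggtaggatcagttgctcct
Hbb-bt, chr7:103813924-103814043, minus strand: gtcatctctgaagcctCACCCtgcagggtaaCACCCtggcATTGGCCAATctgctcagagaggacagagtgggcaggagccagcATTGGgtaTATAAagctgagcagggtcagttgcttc

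The annotated promoter of Hba-a2, at chr11:32296372-32296491 on the plus strand, shares an unbroken run of 297 of 300 bases with that of Hba-a1, and therefore 1 of the pair is printed. Hbb-bs and Hbb-bt were identical at 91 of 122 aligned positions of the stretch shown. The stretches of all 4 genes held the CCAAT box, the CACCC box and the TATAA box, and that of Hbb-bs alone held the GATA motif. Hbb-bt held 3 matches of the CCAAT box, of which 2 lie side by side on opposite strands, and 2 of the CACCC box. Among 32,851 annotated mouse promoters, the same 120 bases held the CCAAT box in 21.3%, the CACCC box in 31.7%, the TATAA box in 11.8% and the GATA motif in 29.5%. These searches took both strands and exact letters. A match describes letters, not binding.

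Reads were counted by gene, and the paralogs share sequence. Among windows of 90 bases within the last 300 bases of the GENCODE M21 transcripts, 121 of 211 windows of Hba-a1 also occur in Hba-a2. For Hbb-bs and Hbb-bt this held for 52 of 211 windows of Hbb-bs. The division of UMIs within each pair is therefore uncertain, while the alpha-type and beta-type sums are less affected.

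Across the whole series the libraries held 71,216,133 to 122,022,000 UMIs in 8488 to 17,997 barcodes. Every pair of libraries shared between 28 and 77 barcode sequences, and 1 of all these was a member in both libraries of its pair. The chow library 2 stands apart in having few members, and with 25,784 non-globin UMIs in its members against 199,593 to 506,531 in the other libraries its levels are the least precise.

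Haemoglobin-rich barcodes were rarest in the chow libraries. In the NO2-OA library members made up 8.59% of barcodes (95% exact Clopper-Pearson interval 8.16 to 9.04). In the HFD + L-NAME libraries they made up 5.84% (5.44 to 6.26) and 8.05% (7.48 to 8.65), and in the chow libraries 1.98% (1.78 to 2.19) and 0.556% (0.427 to 0.710). These intervals cover counting error only. The HFD + L-NAME libraries did not overlap the chow libraries, and the NO2-OA library was above both HFD + L-NAME libraries, with an interval that overlaps that of library 2. With platelet barcodes (at least 5 UMIs of the platelet genes Pf4 and Ppbp) left out of the denominator, NO2-OA was at 8.72%, HFD + L-NAME at 6.23% and 10.9%, and chow at 2.19% and 0.585%, so NO2-OA then lay between the HFD + L-NAME libraries. The barcodes left out are set by UMI counts and may include cells other than platelets.

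On the log2 scale the mean share was higher by 2.71 in HFD + L-NAME than in chow. An exact permutation test over the 4 libraries gave p = 0.333 (two-sided), which is the smallest p that 2 libraries against 2 can give. Library 1 of HFD + L-NAME over library 1 of chow gave 2.95-fold, and library 2 over library 2 gave 14.5-fold. The chow libraries thus differed from each other more (SD 1.30 on the log2 scale) than the HFD + L-NAME libraries did (SD 0.33). Without chow library 2 the difference was 1.79, and without chow library 1 it was 3.62. The NO2-OA library exceeded the mean of the HFD + L-NAME libraries by 0.33 on the log2 scale, a difference without a test, and by 0.079 with platelet barcodes left out.

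**Figure D1:**
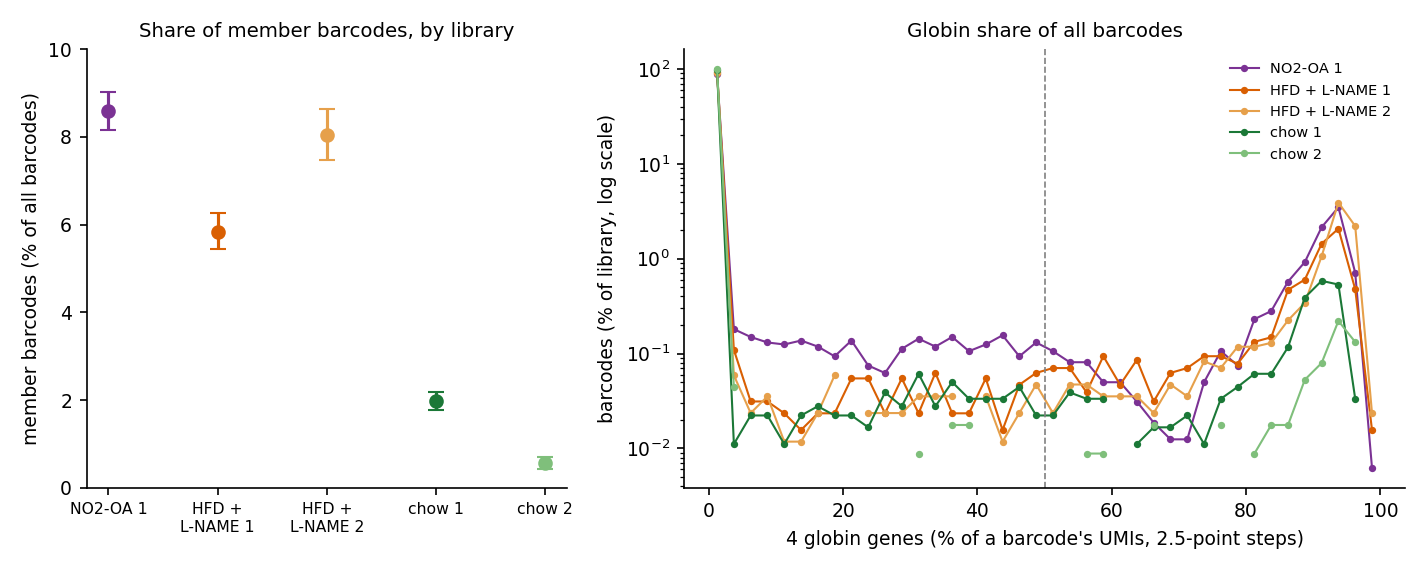
Left: member barcodes in % of all barcodes of each library, with exact 95% counting intervals. Right: distribution of the globin share over all barcodes of each library, on a log axis. The chow libraries, at 1.98% and 0.556%, lie below the other 3, and barcodes between the low and the high end are few.

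The 50% boundary fell in a sparse range of the distribution. Across all libraries 25 members held 50 to 55% globin and 13 barcodes without Cd79a and Cd3e held 45 to 50%. These 2 sets were alike in median UMIs (8376 just inside, 8369 just outside) and in median detected genes (1620 just inside, 1740 just outside). Most members lay far from the boundary, and 72.6% of them held at least 90% globin. The barcodes with 5 to 80% globin were most common in the NO2-OA library, at 2.83% of barcodes, against 1.48% and 1.06% in HFD + L-NAME and 0.822% and 0.0970% in chow. A further 177 barcodes at or above 50% globin were left out for a UMI of Cd79a or Cd3e.

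Members held little RNA beyond globin. Their median UMI count was 3780 in the NO2-OA library, 4708 and 8835 in HFD + L-NAME and 4892 and 6431 in chow. Of these, the median count outside the 4 globin genes was 284 in NO2-OA, 373 and 490 in HFD + L-NAME, and 430 and 359 in chow. Median detected genes were 147 in NO2-OA, 176.5 and 206 in HFD + L-NAME, and 201.5 and 176 in chow, against 2192 to 2404 in the other barcodes of these libraries. The NO2-OA members were the lowest in all 3 measures, and the HFD + L-NAME and chow libraries overlapped in all 3. Less RNA per red cell and a different mix of red cells cannot be told apart here.

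A filter on detected genes and mitochondrial share changed the order of the libraries. Members with fewer than 200 detected genes made up 79.1% in NO2-OA, 63.8% and 44.8% in HFD + L-NAME, and 48.6% and 61.9% in chow. With at least 200 genes and a mitochondrial share below 10%, members made up 1.79% of barcodes in NO2-OA, 2.11% and 4.44% in HFD + L-NAME, and 1.01% and 0.212% in chow. In all, 1141 of 3230 members passed it. Under that filter the NO2-OA library fell below both HFD + L-NAME libraries, with a log2 difference of -0.77, whereas HFD + L-NAME stayed above chow by 2.73.

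Hbb-bs, the major adult beta-type gene in these libraries, was the most abundant globin in members of each library. It took 51.5% of globin UMIs in NO2-OA, 51.4% and 49.0% in HFD + L-NAME, and 46.1% and 50.6% in chow. Hba-a1 took 20.9% in NO2-OA, 20.6% and 22.9% in HFD + L-NAME, and 22.5% and 21.2% in chow. Every member held UMIs of all 4 genes.

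The proportions of the 4 globins varied little between libraries. The ratio of alpha-type to beta-type UMIs was 0.582 in NO2-OA, 0.567 and 0.672 in HFD + L-NAME, and 0.679 and 0.602 in chow, so the groups overlapped. Hbb-bs over Hbb-bt was 4.39 in NO2-OA, 4.13 and 4.51 in HFD + L-NAME, and 3.44 and 4.26 in chow. Hba-a1 over Hba-a2 was 1.32 in NO2-OA, 1.33 and 1.33 in HFD + L-NAME, and 1.25 and 1.29 in chow. This last ratio was higher by 0.07 on the log2 scale in HFD + L-NAME than in chow, without overlap, and the exact permutation test gave the smallest possible p of 0.333. Within a library the alpha-type share of a member's globin UMIs ran from 30.5% at the 5th percentile to 41.1% at the 95th in NO2-OA, and the other libraries had spreads of like width.

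Levels of genes other than the 4 globins are given as counts per 1,000,000 UMIs outside those 4 genes, abbreviated CPM, and means are over the 5 libraries. Embryonic globins were close to absent. Hba-x, Hbb-bh1 and Hbb-bh2 had no UMI in any member, and Hbb-y, the embryonic epsilon-type gene, reached at most 5.32 CPM. Hbq1a and Hbq1b, theta-type genes of the alpha cluster, averaged 227 and 551 CPM in members and 0.118 and 0.435 in the rest.

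The most abundant RNAs after the globins included those of red-cell maturation and haem supply. Alas2, the erythroid enzyme that starts haem synthesis, averaged 19,945 CPM in members and 15.6 in the other barcodes. Its level was 20,502 in NO2-OA, 16,239 and 22,159 in HFD + L-NAME, and 17,826 and 22,999 in chow, and the groups overlapped. Bpgm averaged 21,745 CPM in members and 31.2 in the others. Alas2 was detected in 96.8 to 99.0% of members and in 1.10 to 4.32% of B barcodes, meaning barcodes with at least 2 UMIs of Cd79a and none of Cd3e. Bpgm was detected in 94.9 to 99.1% of members. Neither gene was used by the rule, and both markers were far above the level of the other barcodes.

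Of the 25 most abundant genes, taken without globin, mitochondrial and ribosomal protein genes, 6 were in the list for reticulocyte maturation (ubiquitin, autophagy), 4 in that for haem and iron, 3 in that for metabolism and 1 in that for the membrane. Ubb, a ubiquitin precursor, averaged 24,946 CPM. Mkrn1, a ubiquitin ligase, averaged 18,726 CPM. Ube2l6, a ubiquitin-conjugating enzyme, averaged 8943 CPM in members and 11.5 in the other barcodes. Bnip3l, the receptor that marks mitochondria for removal in reticulocytes, averaged 9278 CPM. Of the 40 genes listed for reticulocyte maturation, 31 were higher in members than in the rest by their mean level, 21 of them by more than 10-fold, against 20.3% and 4.41% of the 14,284 genes with a UMI in members. Summed over the list, the level was 127,771 CPM in NO2-OA, 116,648 and 139,945 in HFD + L-NAME, and 102,443 and 148,930 in chow.

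Other leading genes were Cmss1 at a mean of 26,594, Gpx1 (glutathione peroxidase) at 23,439 and Tent5c at 13,201 CPM. Fth1 and Ftl1, the ferritin chains, averaged 12,028 and 9561 CPM. Slc25a37, the mitochondrial iron importer mitoferrin, averaged 6179 CPM, and Prdx2, a red-cell antioxidant, averaged 7053. Of 29 measured genes of haem synthesis and iron, 19 were higher in members than in the rest, 11 of them by more than 10-fold, among them Fech, which puts iron into haem, at 3834 CPM against 24.7. The 10 most abundant genes together took 20.3% of non-globin UMIs in members and 5.86% in the rest.

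The genes with the highest ratio of members to other barcodes included those of the red-cell membrane and its skeleton. Slc4a1, the band 3 anion exchanger, was at 3068 CPM in NO2-OA, 2869 and 2396 in HFD + L-NAME, and 3537 and 3219 in chow, against a mean of 2.27 in the rest. Epb42 (protein 4.2) and Kel (the Kell blood group protein) also exceeded the rest by more than 100-fold, together with Trim10, Tspo2, Paqr9, Apol11b, Ube2l6, Gm57156 and Gm57318. Of 35 listed membrane genes 28 were higher in members than in the rest, 23 by more than 10-fold. Epb41, protein 4.1, was the most abundant of them and averaged 9083 CPM.

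Genes of earlier erythroid stages were mixed. Of 20 listed erythroid transcription factors 11 were higher in members than in the rest, and their summed level was 2282 CPM in NO2-OA members, 1863 and 1920 in HFD + L-NAME, and 2505 and 2056 in chow, against 1516 to 1762 in B barcodes. E2f2 averaged 715 CPM in members and 12.1 in the rest, and Lmo2 averaged 550 and 60.7. Gata1, Klf1 and Gfi1b had 21, 3 and 0 UMIs in all 3230 members together; these 5 factors were chosen after their values were seen. Tfrc, the transferrin receptor of iron-importing precursors, averaged 117 CPM, and Epor, the erythropoietin receptor, had 2 UMIs. Of 18 genes listed for proliferating erythroblasts 6 were higher in members than in the rest. Ube2c, a ubiquitin-conjugating enzyme of that list, averaged 1870 CPM in members and 4.01 in the rest. Mki67, a marker of dividing cells, averaged 69.0 CPM in members and 11.0 in the rest, and Birc5 averaged 19.0 and 2.33. Top2a, a topoisomerase of dividing cells, averaged 7.01 CPM in members and 17.9 in the rest. Nos3, the endothelial nitric oxide synthase that L-NAME inhibits, had 1 UMI in all members.

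**Figure D2:**
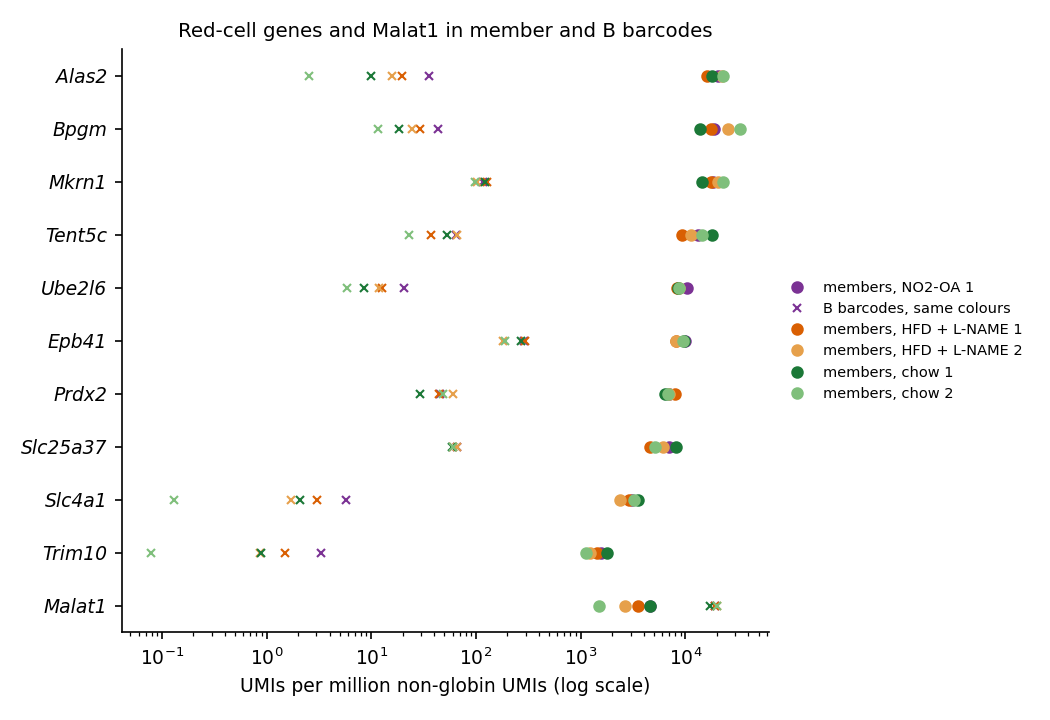
Levels of 10 red-cell genes and Malat1 in members (dots) and in B barcodes (crosses), in CPM, on a log axis, with 1 colour per library. Red-cell genes lie far to the right in members, for example Alas2 at 16,239 to 22,999, and Malat1 lies to the left.

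Malat1, a long RNA kept in the nucleus, was low. It averaged 3382 CPM in members and 17,010 in the rest. The median member held no Malat1 UMI in any of the 5 libraries, whereas the median B barcode had 1.90% of non-globin UMIs in Malat1 in NO2-OA, 1.90% and 2.03% in HFD + L-NAME, and 1.67% and 2.05% in chow. Ribosomal protein genes took a median of 6.14% of non-globin UMIs in members of NO2-OA, 5.55% and 6.07% in HFD + L-NAME, and 3.52% and 5.57% in chow. In B barcodes the corresponding medians were 14.9% in NO2-OA, 15.7% and 15.0% in HFD + L-NAME, and 11.2% and 18.1% in chow. Both measures were lower in members in 5 of 5 libraries, by a mean of 1.91 and 9.59 percentage points. An exact two-sided sign-flip permutation test over the 5 libraries gave p = 0.063 for each, the smallest it can give, and 0.125 after Benjamini-Hochberg adjustment over 8 tests. Platelets also lack a nucleus, and platelet barcodes gave another order. These had at least 5 UMIs of Pf4 and Ppbp, no UMI of Cd79a or Cd3e and less globin than members. The set may hold cells other than platelets. In B barcodes, 1.17% in NO2-OA, 11.3% and 12.3% in HFD + L-NAME, and 18.3% and 10.2% in chow reached 5 such UMIs too. Against platelet barcodes the ribosomal share was higher in members in 5 of 5 libraries, by a mean of 3.26 points, and Malat1 was lower in 5 of 5 by 0.30 points, each with the same exact permutation p of 0.063 (0.125 adjusted). With means in place of medians Malat1 stayed lower in 5 of 5. The ribosomal share was then higher in members in 3 libraries and lower in 2, by a mean of 0.80 points. With each barcode thinned to 500 UMIs, the median Malat1 share was lower in members in 3 of 5 libraries. These 500 UMIs include globin, so members kept far fewer non-globin UMIs, and the depth of this share was not matched. A stricter platelet set had at least 2% of UMIs in 12 platelet marker genes. Its median Malat1 share was 0 in each library, as in members. By means, Malat1 was higher in members than in this set in 4 libraries and lower in 1, by 0.070 points.

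Of 15 heat shock and immediate early genes, listed as a sign of RNA quality, the summed level was 4799 CPM in NO2-OA, 5617 and 6089 in HFD + L-NAME, and 6173 and 5585 in chow. Mitochondrial genes did not differ from B barcodes in 1 direction. They took a median of 4.26% of non-globin UMIs in members of NO2-OA, 3.33% and 2.82% in HFD + L-NAME, and 6.31% and 3.75% in chow. The difference from B barcodes averaged 0.30 points with an SD of 1.20 over the 5 libraries, higher in 2 and lower in 3 (exact permutation p = 0.75).

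Members were not uniform along the globin share. In members with 50 to 60% globin (46 barcodes) Alas2 was at 2652 CPM and Malat1 took 1.62% of non-globin UMIs, with a median of 1617.5 detected genes. In members with 90 to 95% globin (1973 barcodes) Alas2 was at 23,581 CPM and Malat1 took 0.112%. The bins use the quantity of the rule, and CPM is per non-globin UMI. Alas2 CPM can therefore rise with the globin share without a difference between red cells, and this was not tested. With all libraries pooled, the summed level of the 12 platelet markers was highest, at 22,274 CPM, in the 45 members with 60 to 70% globin, against 2812 in the 371 members above 95%. By library the highest bin differed: it was 80 to 90% in NO2-OA at 2234 CPM, 60 to 70% and 70 to 80% in HFD + L-NAME at 31,218 and 27,056, and 60 to 70% in both chow libraries. In the pooled libraries mitochondrial genes peaked at 10.4% of non-globin UMIs in the 121 members with 70 to 80% globin. By library, that bin was highest in NO2-OA at 16.8% and in HFD + L-NAME at 8.29% and 6.11%. In the chow libraries the 60 to 70% bin was highest, at 8.81% and 6.89%, with 7 and 2 barcodes.

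**Figure D3:**
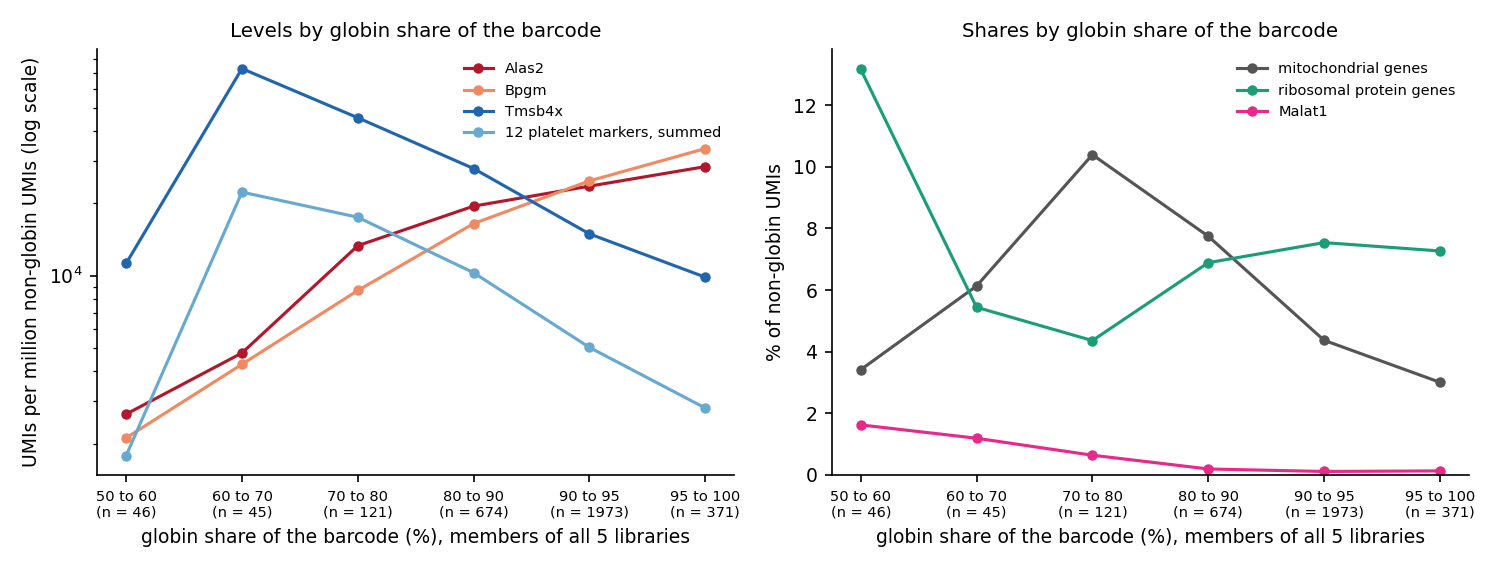
Members of all 5 libraries pooled and binned by globin share. Left: levels of Alas2, Bpgm, Tmsb4x and the summed platelet markers in CPM, on a log axis. Right: mitochondrial genes, ribosomal protein genes and Malat1 in % of non-globin UMIs. Alas2 is at 2652 in the lowest bin and at 28,439 in the highest, while the pooled platelet markers are highest, at 22,274, in the 60 to 70% bin. Because CPM is per non-globin UMI, Alas2 can rise with the globin share alone.

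RNA of other blood cells was present in members, and whether it followed the groups differed by cell type. The classical monocyte markers summed to 361 CPM in NO2-OA, 803 and 1542 in HFD + L-NAME, and 1493 and 1745 in chow, so HFD + L-NAME and chow overlapped. The marker genes of neutrophils, 10 in number, summed to 4243 CPM in NO2-OA, 6060 and 2447 in HFD + L-NAME, and 75.2 and 0 in chow. Most of it was S100a8 and S100a9, the calgranulin genes of neutrophils, and it sat in few barcodes. The 5 barcodes with the most of these RNAs held 89.0% of their UMIs in members of NO2-OA and 98.3% and 83.4% in HFD + L-NAME. Members with at least 10 such UMIs numbered 3 in NO2-OA, 3 and 2 in HFD + L-NAME, and 0 and 0 in chow.

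In members with at least 80% globin the sum of S100a8 and S100a9 was 479 CPM in NO2-OA, 123 and 448 in HFD + L-NAME, and 65.0 and 0 in chow. Between 50 and 80% globin it was 18,089 in NO2-OA, 20,385 and 15,725 in HFD + L-NAME, and 16.3 and 0 in chow. The calgranulin RNA of these 3 libraries therefore lay mainly in barcodes near the boundary of the rule.

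Platelet markers were of another kind. Pf4 or Ppbp, chemokine genes of platelets, had a UMI in 8.55% of members in NO2-OA, 61.1% and 46.7% in HFD + L-NAME, and 72.8% and 52.4% in chow. B barcodes, which should lack these genes, had shares of 8.70% in NO2-OA, 60.3% and 46.0% in HFD + L-NAME, and 76.9% and 58.3% in chow. Their median depth was 5849 UMIs in NO2-OA, 5839 and 8193 in HFD + L-NAME, and 5654 and 5859 in chow. In each library the exact interval of the members held the share of B barcodes, so the detection is not read as expression in members, and its source was not tested. The UMIs of Pf4 and Ppbp averaged 0.182 per member in NO2-OA, 2.42 and 1.86 in HFD + L-NAME, and 2.45 and 1.67 in chow, and 0.337 per B barcode in NO2-OA, 2.93 and 2.97 in HFD + L-NAME, and 4.47 and 1.97 in chow. Per non-globin UMI the levels were higher in members. The 12 platelet markers summed to 1074 CPM in NO2-OA members, 11,294 and 7199 in HFD + L-NAME, and 10,076 and 8649 in chow, against 167 in NO2-OA B barcodes, 1146 and 623 in HFD + L-NAME, and 1662 and 660 in chow. The markers of macrophages C1qa, C1qb and C1qc were likewise detected in 9.81% of members and 11.4% of B barcodes in HFD + L-NAME library 2, and had no UMI in the 1380 members of NO2-OA.

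**Figure D4:**
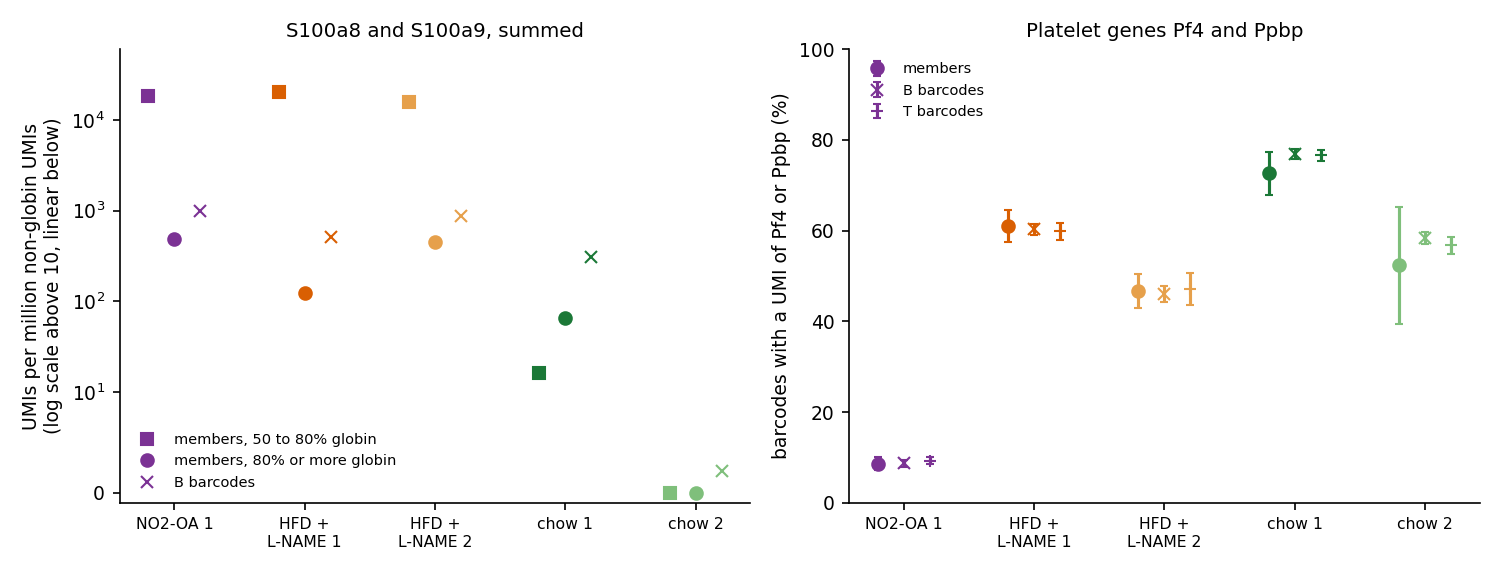
Left: summed S100a8 and S100a9 in CPM in members with 50 to 80% globin (squares), members with 80% or more (dots) and B barcodes (crosses), on an axis that is logarithmic above 10 and linear below. Right: barcodes with a UMI of Pf4 or Ppbp in %, for members, B barcodes and T barcodes (at least 1 UMI of Cd3e and none of Cd79a), with exact 95% intervals. The NO2-OA library is low in all 3 kinds, at 8.55% of members and 8.70% of B barcodes.

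Red-cell genes were also found outside members. The 4 globins took 1.33% of UMIs of the other barcodes in NO2-OA, 0.708% and 1.06% in HFD + L-NAME, and 0.376% and 0.0620% in chow, which is the order of the member shares. In B barcodes Alas2 was at 2.43 UMIs per 1000 globin UMIs in NO2-OA, 2.19 and 2.05 in HFD + L-NAME, and 2.56 and 4.91 in chow. In members the same ratio was 1.99 in NO2-OA, 1.77 and 1.60 in HFD + L-NAME, and 2.31 and 1.70 in chow.

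The regimen was then compared within members, with the counts of all members of a library summed and edgeR's quasi-likelihood test fitted to 4238 genes without the 4 globins. In HFD + L-NAME over chow 30 genes rose and 4 fell at an adjusted p under 0.05, which is 0.708% and 0.0944% of the genes tested, or 0.802% in all. The genes that rose with the smallest p were neutrophil and inflammatory genes. S100a9 was at 3328 and 1179 CPM in HFD + L-NAME and at 30.1 and 0 in chow, a log2 fold change of 6.90 ± 0.56 (SE approximated from the test statistic, here and below; edgeR adjusted p = 1.68e-30). S100a8 rose by 6.96 ± 0.60 (edgeR adjusted p = 1.08e-27). Cxcl2, a chemokine that draws neutrophils, had 265 and 307 UMIs in HFD + L-NAME and 4 and 0 in chow. Of the 10 neutrophil markers 7 were tested and 5 rose (S100a8, S100a9, Retnlg, Csf3r and Lcn2). Each of these 5 had at most 6 UMIs in chow, so they passed the filter on low counts through the other libraries. Lcn2 had 45 UMIs in HFD + L-NAME library 1 and 1 in library 2.

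Il1b, the cytokine interleukin 1 beta, had 115 and 192 UMIs in HFD + L-NAME and none in chow. Taken against a floor of 3 UMIs over both chow libraries, it was at least 29.9-fold higher. Il1r2, a decoy receptor for it, had no UMI in chow either and was at least 9.95-fold higher. Retnlg, Acod1 and Slc7a11 (the cystine transporter and a target of NRF2) also rose, with 1, 1 and 4 UMIs in chow library 1 and none in chow library 2. These 5 genes and Cxcl2 also passed the filter on low counts through libraries other than chow. A fall from chow could not have been called for them. Il1b and Cxcl2 sat in few barcodes, as the calgranulins did. Of the UMIs of both genes together, the 5 top barcodes held 94.2% in HFD + L-NAME library 1 and 78.0% in library 2.

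With members restricted to at least 70% or at least 80% globin, no gene passed with edgeR in this comparison, and 164 and 190 genes had an unadjusted p under 0.05. The threshold of 30% gave 160 genes. Without chow library 1 the number was 3, without chow library 2 it was 106, and it was 9 without HFD + L-NAME library 1 and 9 without HFD + L-NAME library 2. Of the 4 genes that fell, Klra8, a natural killer cell receptor, rested on 16 UMIs in a single barcode of chow library 1. Themis, a T-cell signalling gene, and Scml4 had 52 and 34 UMIs in chow library 1, and none in chow library 2. In HFD + L-NAME Themis had 16 and 4 UMIs and Scml4 had 6 and 5. Without chow library 1 their log2 fold changes turned positive, at 6.14 and 5.32. Znrf3, a membrane ubiquitin ligase that dampens Wnt signals, fell by 3.23 on the log2 scale with 30 UMIs in chow library 1, 86.7% of them in 5 barcodes.

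A second set of genes that rose was carried by many members. Gng5 (a G protein subunit), Ypel3 and Eif1 (a translation initiation factor) were singled out after their values were seen. Eif1 was at 7850 and 7066 CPM in HFD + L-NAME and at 3156 and 5197 in chow, a log2 fold change of 1.37 ± 0.36 (edgeR adjusted p = 0.0217). Gng5 was at 1026 and 602 CPM in HFD + L-NAME and at 366 and 233 in chow, a change of 1.82 ± 0.40 (edgeR adjusted p = 0.00225). Ypel3 was at 803 and 1057 CPM in HFD + L-NAME and at 371 and 621 in chow. Because these 3 genes were picked with their values known, the order of the libraries in them is not read as a result. At least 1 UMI of the 3 genes was found in 676 of 748 and 603 of 683 members in HFD + L-NAME and in 268 of 356 and 50 of 63 in chow. In members with at least 80% globin their fold changes were 1.31 for Eif1, 1.66 for Gng5 and 1.46 for Ypel3, and their edgeR adjusted p there ran from 0.0817 to 0.110.

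None of the 124 tested genes of 6 red-cell lists (globins, haem and iron, membrane and skeleton, transcription factors, maturation, metabolism) passed in HFD + L-NAME over chow, with edgeR or with DESeq2. An unadjusted p under 0.05 was found for 18 of them with edgeR and for 9 with DESeq2. Of the fold changes, 95 were above 0, with a median of 0.45, against 56.2% and a median of 0.13 over all genes tested. The maturation list had 34 of 39 above 0 with a median of 0.50, and the haem and iron list 17 of 21 with a median of 0.54. With equal numbers of members per library the median over the 66 genes still tested was -0.24, with 18 above 0. Without chow library 2, 5 of 120 rose (Blvrb, Hagh, Isg20, Txn1 and Ubb), against 2.05% of all genes tested. With the globin threshold at 30% in place of 50%, 27 of 127 rose and none fell, against 2.37% of all genes tested that rose, with a median of 0.92 against -0.08 over all genes. Alas2, Bpgm, Mkrn1, Ube2l6, Prdx2 and Gpx1 were among these 27, so the count in these lists turns on the threshold. With the threshold at 80%, none of 116 passed, with a median of 0.30 against 0.09 over all genes. At 30%, chow library 1 held 373 barcodes in place of 356, and chow library 2 held 65 in place of 63. What the added barcodes contribute was not tested. Of 15 tested targets of NRF2, a factor of the antioxidant response, 13 were above 0 with a median of 0.95, and Slc7a11 alone passed. None of 5 tested genes of nitric oxide and cyclic GMP passed with edgeR.

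Car2, the red-cell carbonic anhydrase, was at 7459 and 6999 CPM in HFD + L-NAME and at 3948 and 5275 in chow, a log2 fold change of 1.17 ± 0.36 that did not pass (edgeR adjusted p = 0.0793). Ubb was at 25,845 and 30,977 CPM in HFD + L-NAME and at 9775 and 34,285 in chow, so the lowest and the highest value were both from chow. Alas2 changed by 0.44 ± 0.36 and Bpgm by 0.43 ± 0.36 (edgeR adjusted p = 0.858 and 0.866). Chow library 1 had the lowest level of both Bpgm and Ubb.

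The NO2-OA library was compared with the same 2 HFD + L-NAME libraries, so both comparisons share them. With 1 NO2-OA library the fit assumes that it varies like the other groups. Here 13 genes rose and 159 fell, which is 0.307% and 3.75% of the genes tested, or 4.06% in all. Against 172 calls in all, 28 genes passed without HFD + L-NAME library 1, 60 without HFD + L-NAME library 2 and 294 without chow library 2. The genes that fell included platelet genes. Cd9 (a tetraspanin) was at 259 CPM in NO2-OA and at 4007 and 1877 in HFD + L-NAME, a log2 fold change of -3.72 ± 0.52 (edgeR adjusted p = 1.64e-09). Pf4 was at 336 CPM in NO2-OA and at 3353 and 2338 in HFD + L-NAME, a change of -3.31 ± 0.50 (edgeR adjusted p = 2.80e-08). Tmsb4x, the actin-binding thymosin beta 4, was at 4322 CPM in NO2-OA and at 37,509 and 19,704 in HFD + L-NAME, a change of -2.94 ± 0.52 (edgeR adjusted p = 3.88e-06). Ctla2a, Tsc22d1, Nrgn, Gng11 and Clec1b also fell, with changes of -3.79 to -3.48, and Gm6634 was at 15.8 CPM in NO2-OA and at 509 and 264 in HFD + L-NAME.

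Of the 12 platelet markers, 10 fell, with a median fold change of -3.41 against -0.06 over all genes tested. Platelet barcodes numbered 230 in NO2-OA, 798 and 2240 in HFD + L-NAME, and 1763 and 575 in chow. In platelet barcodes 158 of the 159 genes that fell had a mean level more than 2-fold that in B barcodes. The same held for 6 of the 13 genes that rose (46.2%) and for 20.7% of all genes tested. Platelet barcodes may hold other cells, so this measure does not mark a gene as a platelet gene. Markers of other cells fell too, among them Lyz2 of classical monocytes, Gzma of natural killer cells and Treml4 of non-classical monocytes. In B barcodes 143 of the 159, or 89.9%, were also lower in NO2-OA than in both HFD + L-NAME libraries, as were 30.1% of all genes tested. Whether platelet RNA outside cells accounts for these calls in members was not tested.

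Of the 124 tested genes of the red-cell lists 3 fell, namely Ybx1, Gpx4 and Tpi1, and none rose, against 3.75% and 0.307% of all genes tested. Ybx1, an RNA-binding protein, was at 63.2 CPM in NO2-OA and at 418 and 256 in HFD + L-NAME, a change of -2.63 ± 0.59 (edgeR adjusted p = 0.000615). Gpx4, a peroxidase of lipid hydroperoxides, was at 166 CPM in NO2-OA and at 570 and 415 in HFD + L-NAME. The median over the 124 genes was -0.18, with 41 above 0, and in members with at least 80% globin it was 0.05 over 116 genes, where Ybx1 alone passed and 4.82% of all genes tested fell. Gucy1b1, a subunit of the nitric oxide receptor guanylate cyclase, fell with 2 UMIs in NO2-OA, 19 and 14 in HFD + L-NAME, and 17 and 0 in chow. Whether the falls of Ybx1, Gpx4, Tpi1 and Gucy1b1 lie in red cells or in RNA of other cells was not tested. None of the 15 tested targets of NRF2, which nitrated fatty acids are known to activate, passed with edgeR, and their median was -0.37. C1qa, C1qb and C1qc also fell, with all but 1 of their UMIs in these 3 libraries in HFD + L-NAME library 2.

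The 13 genes that rose included T-cell genes, although of 8 tested T-cell markers only Il7r passed. Skap1, an adaptor of the T-cell receptor, was at 278 CPM in NO2-OA and at 40.6 and 47.9 in HFD + L-NAME, a change of 2.40 ± 0.58, and chow library 1 was at 230. Tox, Prkcq, Ablim1, Rnf19a, Ms4a6b, Sbno2 and Il7r also rose, and Ngp, a neutrophil granule gene, had 34 UMIs in NO2-OA and 0 and 4 in HFD + L-NAME. Of the 34 Ngp UMIs, 79.4% lay in 5 barcodes. For Skap1, Tox, Prkcq, Themis and Il7r together, the 5 top barcodes held 45.5% of UMIs in NO2-OA, and 74.1% and 60.7% in HFD + L-NAME. Members with at least 10 such UMIs numbered 8 in NO2-OA, and 2 and 1 in HFD + L-NAME. The 11 T-cell markers summed to 505 CPM in NO2-OA, 208 and 95.8 in HFD + L-NAME, and 616 and 271 in chow, and in members with at least 80% globin to 205 in NO2-OA, 120 and 66.5 in HFD + L-NAME, and 130 and 283 in chow. The summed level of Skap1, Tox, Prkcq, Themis and Il7r in members with at least 80% globin was 190 CPM in NO2-OA, 58.3 and 39.3 in HFD + L-NAME, and 181 and 121 in chow. With members restricted to at least 80% globin 3 genes rose and 129 fell, and the part of mixed barcodes in the remaining calls was not tested.

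Alas2 changed by -0.17 ± 0.44 and Bpgm by -0.46 ± 0.45 in NO2-OA over HFD + L-NAME (edgeR adjusted p = 0.998 and 0.944). Slc4a1 changed by -0.02 ± 0.42 (edgeR adjusted p = 0.998). No difference in these red-cell genes was detectable between the NO2-OA library and the HFD + L-NAME libraries with 1 library against 2.

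**Figure D5:**
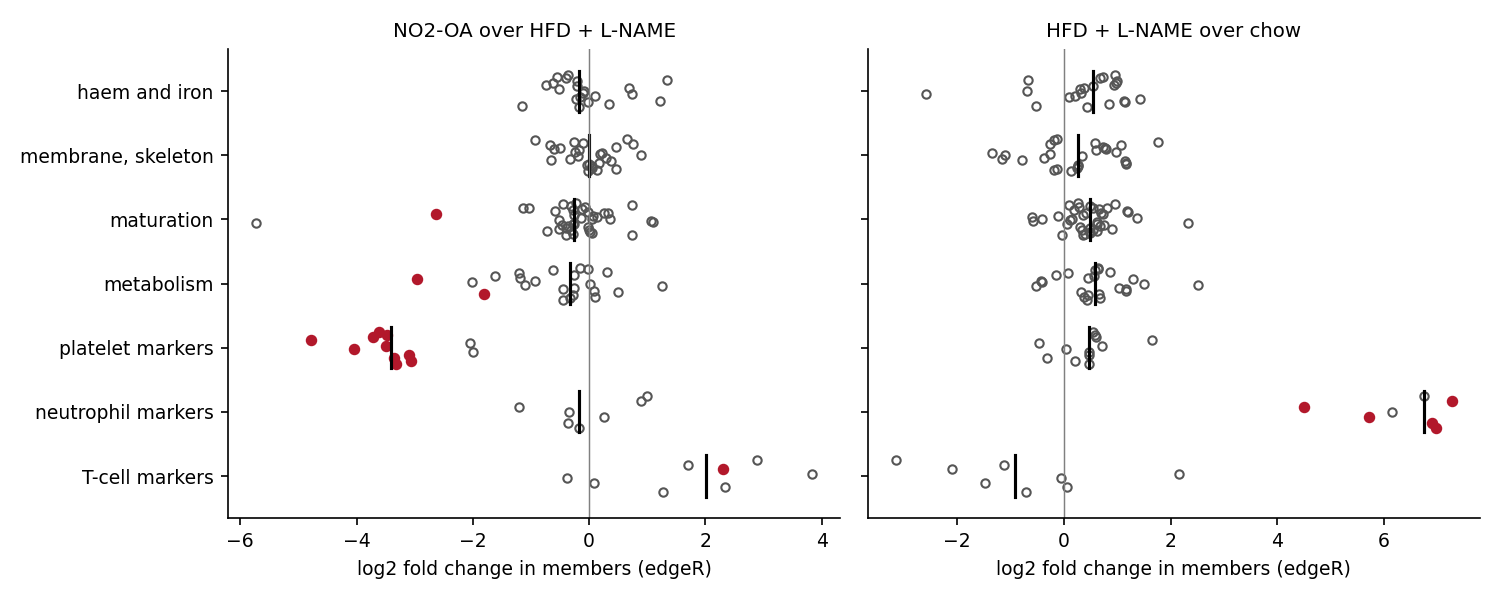
Log2 fold changes of the tested genes of 7 lists in members, NO2-OA over HFD + L-NAME on the left and HFD + L-NAME over chow on the right. Each circle is a gene, filled red where the edgeR adjusted p is under 0.05, and the black bar is the list's median. Platelet markers lie at a median of -3.41 on the left, and 5 neutrophil markers are filled on the right.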

How the data were processed

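RNA of mouse blood mononuclear cells was measured by 3′ droplet sequencing in 5 libraries. Per the file headers, the deposited values are UMI counts per gene and barcode from Cell Ranger 7.1.0, with 33,696 genes; the submitters' processing notes name mm39 and bcl2fastq. The deposited barcodes hold at least 500 UMIs each, and no further filter or doublet caller was applied.

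Member barcodes were found by the rule given, and the counts were summed per library. Members and gene lists were chosen with earlier results of these data known. Levels are counts per 1,000,000 UMIs outside the 4 globin genes (CPM). For the tests, low genes were removed with filterByExpr, library sizes were scaled by TMM, and the robust quasi-likelihood model of edgeR 4.0.16 (R 4.3.3) was fitted to all 5 libraries with a term for group, which leaves 2 residual degrees of freedom. The 4 globin genes were left out, with Benjamini-Hochberg adjustment over 4238 genes at 0.05. SEs are the absolute fold change divided by the square root of F. DESeq2 1.42.0 was an alternative. Named genes were the 25 most abundant, the 15 with the highest ratio to other barcodes among genes in at least 5% of members, up to 8 per direction and comparison by p, and members of the lists; some genes that this rule takes are not reported here. Single values were tested by exact permutation over libraries in scipy 1.17.1. The edgeR step was tested on simulated counts. Shares carry exact binomial intervals, which cover counting error only.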

Additional observations from a re-analysis of the deposited data

How the results depend on the processing

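The higher member share in HFD + L-NAME than in chow kept its direction in each of the alternatives tried, between 1.79 and 3.62 on the log2 scale with 1 library left out. The NO2-OA difference turned to -0.77 with at least 200 genes and a mitochondrial share below 10%, and to -0.75 as a share of the barcodes that pass this filter. In HFD + L-NAME over chow, 34 genes passed, against 160 at 30% globin, 0 at 70% and at 80%, 9 with DESeq2, 17 without a filter on low counts, 0 with equal numbers of members, 5 with the 4 libraries alone, and 3 to 106 with 1 library left out. In NO2-OA over HFD + L-NAME, 172 passed, against 66 with DESeq2, 91 without the filter, 7 with equal numbers, and 28 to 294 with 1 library left out. The cause of these shifts was not tested. With equal numbers of members, 628 genes were left to test.

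The alpha to beta ratio, -0.05, turned to 0.0016 with at least 200 genes and ran from -0.17 to 0.072 with 1 library left out. Against platelet barcodes, means in place of medians gave 0.011 points for the mitochondrial share, 0.80 for the ribosomal share and -1061 for UMIs. The 2% platelet barcodes gave 0 for Malat1 with medians. With means they gave 0.070 points, higher in members in 4 libraries and lower in 1. Bpgm in HFD + L-NAME over chow gave -0.29 and Alas2 -0.32 with equal numbers, and Bpgm ran from -0.22 to 1.21 with 1 library left out. Themis ran from -3.39 to 6.14 and Scml4 from -3.02 to 5.32. In NO2-OA over HFD + L-NAME, equal numbers gave 0.24 for Bpgm and 0.50 for Alas2, and Alas2 ran from -0.39 to 0.20 with 1 library left out. Of 216 values of 15 named genes in HFD + L-NAME over chow, 126 stayed past the threshold, 88 did not and 2 reversed. In NO2-OA over HFD + L-NAME 182 of 225 stayed and 43 did not.

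The labels give libraries of both groups the numbers 1 and 2 without saying that they pair. Deviations of same-numbered libraries correlated at 0.17 over 2274 genes, with only 2 pairs. With a replicate block 45 genes passed in HFD + L-NAME over chow, 9 of them in the red-cell lists, among them Blvrb, Car2, Fth1, Ftl1, Gclm, Hagh, Isg20 and Ubb, against 1.06% of all genes that rose, and 124 passed in NO2-OA over HFD + L-NAME, where the block gave 0.10 for Bpgm and 0.12 for Alas2. The 25,784 non-globin UMIs of chow library 2 limit the comparison with chow.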

Other observations

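Hba-a1 UMIs outside members did not keep the same proportion to the other globins in each kind of barcode. This was noticed after the values were seen and is given without a test. In platelet barcodes Hba-a1 took 21.6% of the UMIs of the 4 globin genes in NO2-OA, 44.2% and 27.6% in HFD + L-NAME, and 37.6% and 82.4% in chow, against 20.5% in B barcodes of NO2-OA, 20.6% and 22.0% in HFD + L-NAME, and 21.3% and 23.1% in chow. In barcodes with at least 2% platelet markers the ratio of Hba-a1 to Hba-a2 was 2.17 in NO2-OA, 6.11 and 7.07 in HFD + L-NAME, and 4.61 and 19.3 in chow, whereas in members it was 1.32 in NO2-OA, 1.33 and 1.33 in HFD + L-NAME, and 1.25 and 1.29 in chow. In chow library 2, where members were rarest, platelet barcodes held 1285 UMIs of Hba-a1, 75 of Hba-a2, 150 of Hbb-bs and 50 of Hbb-bt. The T barcodes of that library held 480 UMIs of Hba-a1, 54.2% of their globin UMIs.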
